A study of Mus musculus with 6 samples.

Results

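The genes described here were 31 genes of the integrated stress response (ISR), in activated mouse T cells with or without DMGV. They were listed by name, with earlier results of these data known, and cover the kinases that start the response, the subunits of its target eIF2, the phosphatase subunits that end it, ATF4 and the other transcription factors, and targets of ATF4. All 31 were among the 52550 genes of the count table, and 28 of them were among the 14786 genes with enough counts to be tested.

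RNA of splenic CD3+ T cells from wild-type (WT) mice was sequenced in 6 samples, all stimulated for 24 h with an anti-CD3/CD28 activator, which engages the T cell receptor (TCR). The TCR alone group (n = 3) received no addition, and the TCR+DMGV group (n = 3) received DMGV at 100 ng/ml. DMGV (dimethylguanidino valeric acid) is a product of the dimethylarginines ADMA and SDMA. The labels name this compound, whereas the legend of the corresponding figure names LNY1 at the same dose. LNY1 is a factor that the authors purified from fibroblast medium and equate with ADMA and SDMA. The legend calls the samples independent biological samples, the number of mice behind each is not given in the sources used here, and there was no unstimulated sample, so that each value below is a level in stimulated cells or a difference between stimulated cells.

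In the ISR, stress-sensing kinases phosphorylate the alpha subunit of eIF2, the factor that brings the initiator tRNA to the ribosome. General translation then falls, while a few mRNAs with upstream open reading frames, that of the transcription factor ATF4 among them, are translated more. ATF4 dimerizes with C/EBP family proteins and raises genes of amino acid synthesis, tRNA charging, redox balance and feedback, and the response can be started by amino acid shortage, endoplasmic reticulum (ER) stress, double-stranded RNA, haem shortage or mitochondrial stress. Because the first steps act on protein phosphorylation and translation, mRNA counts read the levels of the parts and of the targets, not the activity of the kinases.

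The samples held 37758725 to 43718867 counts. TCR alone replicate 3 and TCR+DMGV replicate 1, which is 1 sample of each group, stood apart from the other 4. Their scores on the first principal component (32.2% of the variance) were 42.1 and 42.9, and those of the other 4 ran from -34.9 to -10.5. The difference between these 2 samples and the other 4 followed the GC content of the gene (Spearman's rho 0.46 across 14759 genes, which are not independent replicates), with a median log2 difference of -0.31 below the lower quartile of GC content and 0.085 above the upper quartile. Of the ISR genes tested, 5 had a mean in these 2 samples under 0.8 of that in the other 4. All 10 T cell markers had counts, with a summed level of 2970 to 3316 CPM (counts scaled to library depth) in TCR alone and 3206 to 3490 in TCR+DMGV. B cell markers summed to 247 to 272 CPM in TCR alone and 247 to 258 in TCR+DMGV. Activation markers summed to 2972 to 3403 CPM in TCR alone and 2963 to 3234 CPM in TCR+DMGV, and within that list Mki67, a marker of proliferation, was lower with DMGV (log2 fold change -0.48, SE 0.13) and Nr4a1 higher (0.32, SE 0.095), both at an unadjusted p under 0.05. Their part in the ISR values was not tested.

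In activated T cells, ISR genes ranged from very abundant to nearly absent in FPKM, the deposited value that is scaled to gene length and library depth. Eif2s3x, the gamma subunit of eIF2, had the highest level (200.6 ± 17.7 FPKM, SD, n = 6), followed by Atf4 (162 ± 13.8). Next came Lonp1, the mitochondrial matrix protease (83.2 ± 4.78), Eif2s1, the phosphorylated alpha subunit (72.4 ± 5.17), and Eif2s2, the beta subunit (53.0 ± 12.1). Lonp1 and Eif2s1 had ranges that overlapped across samples, as had Eif2s1 and Eif2s2, but within each of the 6 samples Lonp1 was above Eif2s1 and Eif2s1 above Eif2s2. Eif2s3x was above Atf4 in all samples except TCR+DMGV replicate 1, with 178 FPKM for Eif2s3x and 181 FPKM for Atf4.

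Many ATF4 targets were present at low levels. Chac1, Gadd45a, Jdp2, Cbs and Stc2 had means of 0.27 to 1.14 FPKM over the 6 samples. Gdf15, a secreted stress cytokine, had 5 counts in TCR+DMGV replicate 1 and 0 counts in the other 5 samples, and a count of 0 allows up to 3 counts, or 0.0686 to 0.0795 CPM in the 6 libraries. Nupr1, a stress-induced chromatin protein, had 0 to 9 counts, and Vldlr, a lipoprotein receptor, had 0 to 25. These 3 genes were under the filter on low counts and had no test. Other targets were at higher levels, among them Lonp1 and Xpot (41.0 ± 2.02 FPKM), Aldh18a1 (36.3 ± 2.64) and Eif4ebp1 (17.9 ± 2.42). Atf4 mRNA was thus among the most abundant of the 31, while its targets ranged from high levels to nearly absent.

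**Figure D1:**
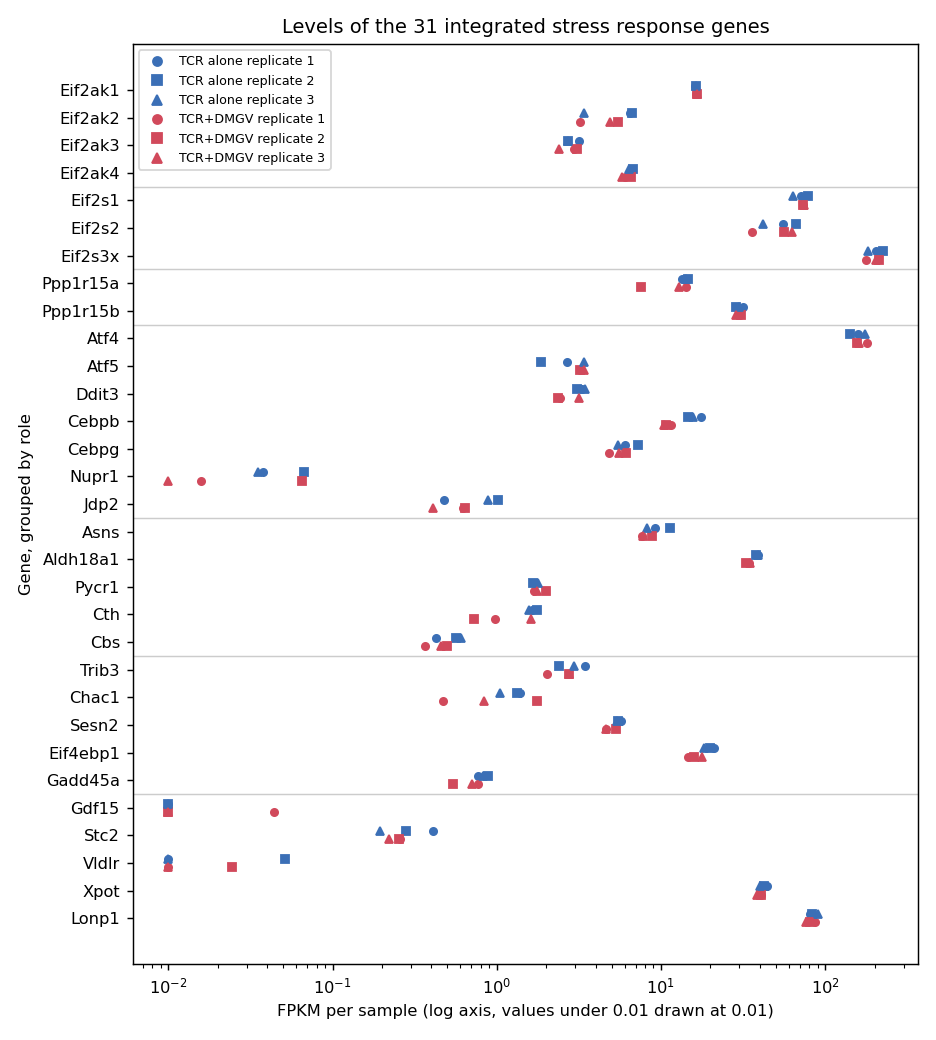
FPKM of each ISR gene in each of the 6 samples on a log axis, with genes grouped by role, blue for TCR alone, red for TCR+DMGV and the marker shape for the replicate; values under 0.01 are drawn at 0.01. Eif2s3x and Atf4 sit above 100 FPKM in every sample, and Gdf15, Nupr1 and Vldlr lie below 0.1.

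No ISR gene passed the adjusted threshold between TCR+DMGV and TCR alone. With edgeR's quasi-likelihood test and Benjamini-Hochberg adjustment over 14786 genes, 0 of the 28 tested had an adjusted p under 0.05, beside 2 genes in the whole table (0.0135%), Slc39a9 and Ahcyl2, which are named because they are the only ones. DESeq2 and limma also called none of the ISR genes they tested. At an unadjusted p under 0.05 there were 2 ISR genes, Cebpb and Aldh18a1, both lower with DMGV, against 3.19% of all genes in either direction and 1.56% in the lower direction. The groups did not overlap for 3 of the 28, Cebpb, Aldh18a1 and Gadd45a, again all lower with DMGV, beside 8.86% of all genes without overlap and 3.94% without overlap and lower. The adjusted p of every ISR gene in this test was 0.999, so that all differences below are descriptions with their errors.

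Among the ISR genes, 22 of 28 had a log2 fold change below 0, beside 49.4% of all genes. Their median log2 fold change was -0.17, and that of all genes was 0.0024. In single samples the picture was less separate. The median deviation of the 28 genes from their 6-sample mean was 0.072, 0.14 and 0.0022 in the TCR alone samples, and -0.11, 0.043 and -0.024 in the TCR+DMGV samples. TCR+DMGV replicate 2 lay above TCR alone replicate 3, so the groups overlapped. TCR+DMGV replicate 1 was the lowest and TCR alone replicate 2 the highest, and the median log2 fold change was -0.065 without the former and -0.086 without the latter. It was -0.11 when both samples that stood apart were left out, with 24 of 29 genes lower.

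The genes were then read by level of expression. Of the 9 ISR genes over 64 CPM, 5 were lower and the median log2 fold change was -0.026, with 46.5% of all genes in that range lower. All 9 genes between 8 and 64 CPM were lower, with a median of -0.23, where 48.8% of all genes were lower. Of these, Eif2ak3 was at -0.0098 (SE 0.13) and ran from -0.089 to 0.083 with 1 sample left out. Ppp1r15a was at -0.28 with all samples and at -0.052 without TCR+DMGV replicate 2. Under 8 CPM, 8 of 10 were lower with a median of -0.26, where 51.7% of all genes were lower, and the median standard error of the ISR genes was 0.25 there.

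**Figure D2:**
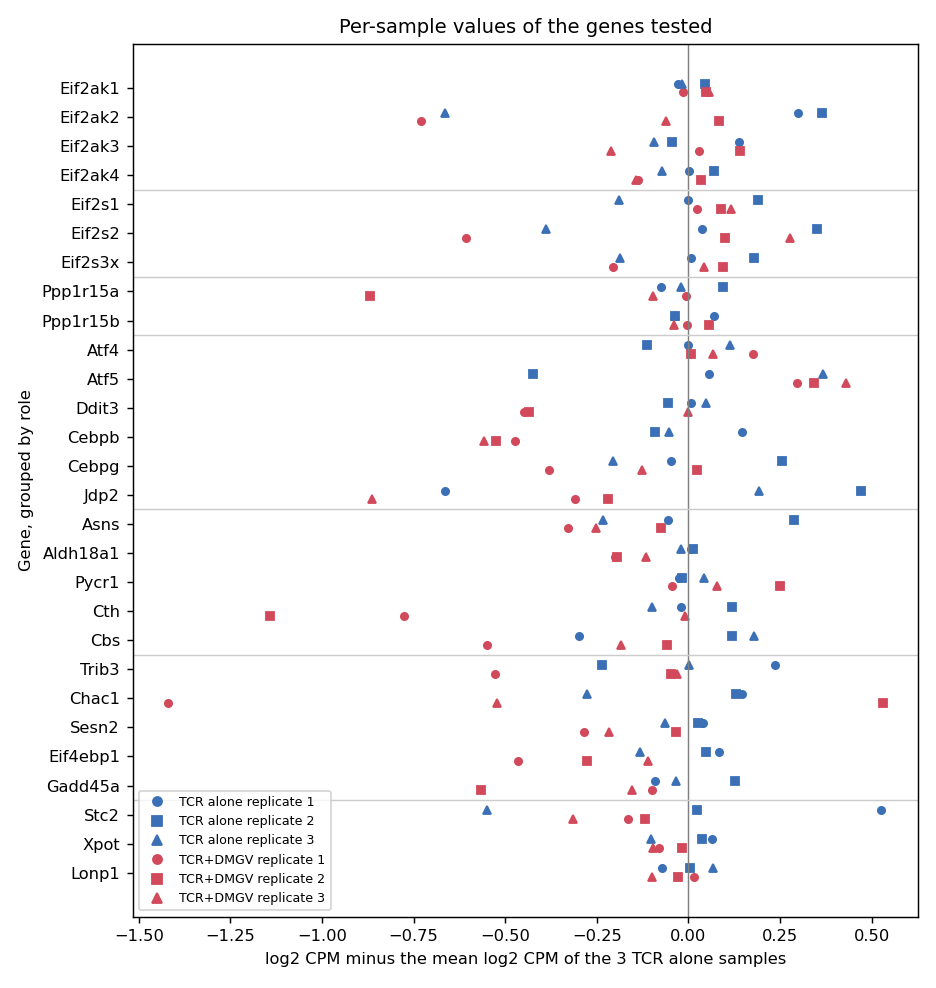
Each sample's log2 CPM minus the mean of the 3 TCR alone samples, for the 28 ISR genes tested, grouped by role; the marker shape is the replicate. Red points of Cebpb, Aldh18a1 and Gadd45a all lie left of the blue ones, and the red and blue points of the other 25 genes overlap.

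The eIF2 kinases are the sensors of the response. Eif2ak1 encodes HRI, which senses haem and relays mitochondrial stress, and its level was 102, 107 and 102 CPM in the TCR alone samples and 103, 107 and 108 CPM with DMGV. The 6 values lay close together, with a log2 fold change of 0.030 (95% interval -0.13 to 0.19). Eif2ak4 encodes GCN2, the sensor of uncharged tRNA, and had 54.9, 57.6 and 52.3 CPM in TCR alone and 49.9, 56.2 and 49.7 CPM in TCR+DMGV. Replicates 1 and 3 with DMGV were the lowest of the 6, replicate 2 was within the TCR alone range, and the log2 fold change was -0.081 (-0.30 to 0.14). Eif2ak3 encodes PERK, the ER sensor, with 21.2, 18.7 and 18.1 CPM in TCR alone and 19.7, 21.3 and 16.7 CPM in TCR+DMGV. The groups overlapped throughout and the log2 fold change was -0.0098 (-0.31 to 0.29).

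Eif2ak2 encodes PKR, the sensor of double-stranded RNA, and it split the samples in another way. Its level was 37.1, 38.8 and 19.0 CPM in TCR alone and 18.2, 31.9 and 28.8 CPM in TCR+DMGV. The low values belonged to the 2 samples that stood apart over all genes, whose mean was 0.54 of that of the other 4. With all samples the log2 fold change was -0.27 (-0.99 to 0.46), and it was -0.32 when these 2 samples were left out. The edgeR adjusted p was 0.73 in the latter fit, and the adjusted p ran from 0.65 to 1.00 over all settings.

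The eIF2 subunits were highly expressed and had small log2 fold changes of -0.061 to 0.069. Eif2s1 had 391, 447 and 344 CPM in TCR alone and 399, 417 and 424 CPM in TCR+DMGV, and all 3 DMGV samples lay within the TCR alone range. Eif2s2 followed the same 2 samples as Eif2ak2, with 414, 515 and 308 CPM in TCR alone and 265, 432 and 489 CPM in TCR+DMGV. The samples that stood apart were the lowest of each group, at 0.62 of the mean of the other 4. For Eif2s3x the range was 759 to 979 CPM in TCR alone and 749 to 922 CPM in TCR+DMGV, and its paralogue Eif2s3y, on the Y chromosome, had 0 counts in every sample.

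Ppp1r15a and Ppp1r15b encode the regulatory subunits, the former induced by the response itself and the latter constitutive, that direct protein phosphatase 1 to eIF2 alpha. Ppp1r15a (GADD34) had 43.9, 49.5 and 45.7 CPM in TCR alone and 46.1, 25.4 and 43.3 CPM in TCR+DMGV. TCR+DMGV replicate 2 alone was low, and the log2 fold change was -0.28 with all samples (-0.78 to 0.23) and -0.052 without that replicate. Ppp1r15b had 198, 184 and 184 CPM in TCR alone and 188, 196 and 183 CPM in TCR+DMGV. Its log2 fold change was 0.0043 (-0.16 to 0.17), and its sign changed with the scaling of the libraries.

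The largest difference relative to its error among the ISR genes was that of Cebpb, which encodes C/EBP beta, a basic leucine zipper factor that pairs with ATF4 and CHOP and is best known from myeloid cells. Cebpb is a gene of 1504 bases on the plus strand of chromosome 2 (167688915 to 167690418, GRCm38). Its level was 29.5, 25.0 and 25.7 CPM in TCR alone and 19.2, 18.5 and 18.1 CPM in TCR+DMGV. All 3 DMGV samples were below all 3 TCR alone samples, with means of 26.7 ± 2.41 and 18.6 ± 0.55 CPM (SD, n = 3 each). This was a log2 fold change of -0.52 (SE 0.10, 95% interval -0.76 to -0.28), which is 30.3% lower. Cebpb ranked 14 of all genes by its p in edgeR, but its adjusted p was 0.999 in edgeR and 0.0992 in DESeq2, the lowest of all settings tried, whose highest was 1.00. An exact permutation test of its 6 values (two-sided) gave p = 0.1, the smallest that 3 samples against 3 allow.

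Cebpb was at an unadjusted p under 0.05 in each of the 17 other settings. With each sample left out in turn its log2 fold change ran from -0.57 to -0.46, and without the 2 samples that stood apart it was -0.57. Tmem189, on the other strand, overlaps 908 of the 1504 bases of Cebpb, and whether the counting used strand is not given in the sources used here. Tmem189 had 47.3, 94.1 and 76.3 CPM in TCR alone and 43.7, 70.0 and 55.0 CPM in TCR+DMGV, so that TCR alone replicate 1, the highest in Cebpb, was the second lowest in Tmem189. Its log2 fold change was -0.37 (SE 0.27), and its part in the Cebpb values was not tested. Macrophage and monocyte markers, of which 10 of 12 had a count, summed to 8.82 to 12.0 CPM in TCR alone and 9.11 to 11.0 CPM in TCR+DMGV, with Cd14 and Marco at 0 in all samples. Of the neutrophil markers, 7 of 8 were at 0 throughout, S100a8, S100a9, Ly6g, Mpo and Elane among them. Csf1r alone had 6.91 to 8.67 CPM over the 6 samples, and 2 of the 12 macrophage and monocyte markers had enough counts to be tested. The summed level of these markers overlapped between the groups, and the part of such cells in the Cebpb values was not tested. In bulk RNA, fewer cells that express a gene and less RNA in each cell cannot be told apart.

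Atf4 did not share this difference. The gene, on chromosome 15 (80255184 to 80257541, GRCm38), had 304, 281 and 329 CPM in TCR alone and 344, 305 and 318 CPM in TCR+DMGV. The highest value was that of TCR+DMGV replicate 1 and the lowest that of TCR alone replicate 2, with the other 4 mixed, and the log2 fold change was 0.081 (SE 0.086, 95% interval -0.12 to 0.28). The interval of the difference thus reaches from 0.92 to 1.22 in fold.

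Ddit3 encodes CHOP, a C/EBP homologue raised late in the response. Its level was 6.35, 6.08 and 6.52 CPM in TCR alone and 4.63, 4.67 and 6.31 CPM in TCR+DMGV. Replicates 1 and 2 with DMGV were the lowest, and replicate 3 was within the TCR alone range, with a log2 fold change of -0.28 (SE 0.17). Atf5, a factor of the mitochondrial unfolded protein response that is itself under the control of upstream reading frames, had 5.98, 4.29 and 7.42 CPM in TCR alone and 7.05, 7.29 and 7.75 CPM in TCR+DMGV. It had the highest log2 fold change among the ISR genes, 0.32 (SE 0.21), and the groups overlapped through TCR alone replicate 3. Nup62, whose gene overlaps Atf5 by 571 bases on the other strand, had 53.6 to 59.5 CPM in 5 samples and 266 CPM in TCR+DMGV replicate 3, the sample in which Atf5 was highest, and its part in the Atf5 values was not tested.

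Cebpg, a short C/EBP protein that pairs with ATF4, ranged from 33.8 to 46.5 CPM in TCR alone and from 29.9 to 39.6 CPM in TCR+DMGV, with a log2 fold change of -0.17 (SE 0.16). Jdp2, a repressor of AP-1 sites, ranged from 1.16 to 2.55 CPM and from 1.01 to 1.58 CPM, with a log2 fold change of -0.51 (SE 0.36). The factors together had a median of -0.22 over 6 tested, with 4 lower. Jdp2 had nearly the fold change of Cebpb at a much lower level and with a much larger error.

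**Figure D3:**
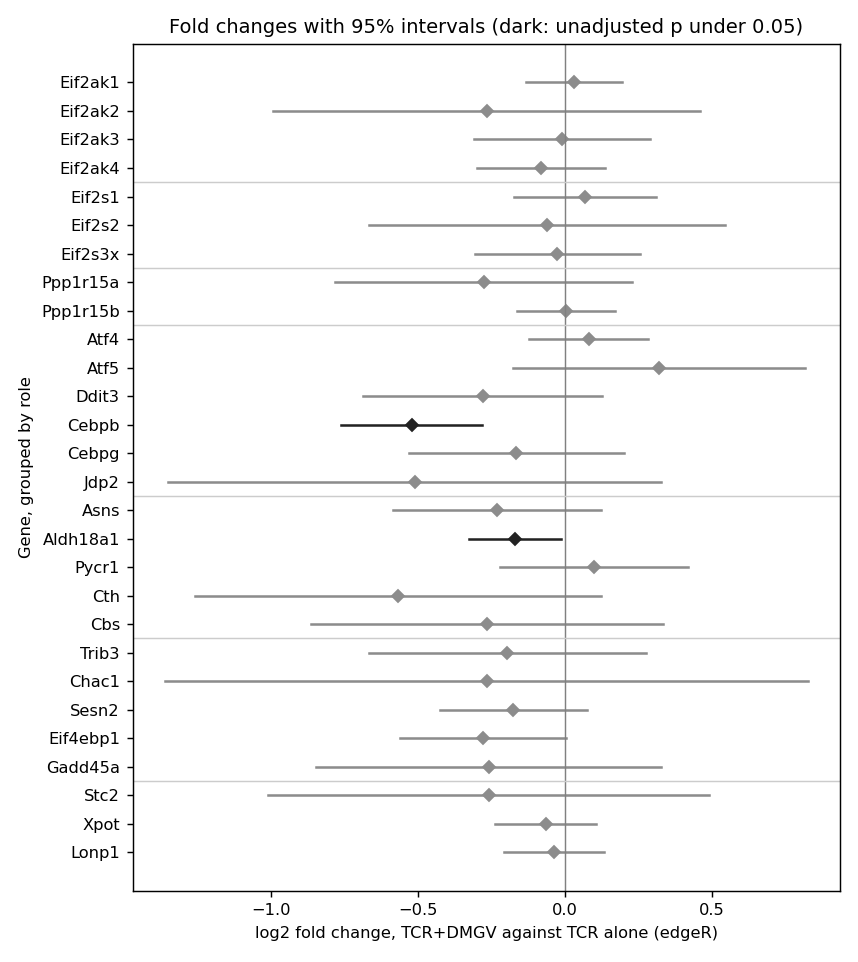
Log2 fold change of TCR+DMGV against TCR alone with its 95% interval for the 28 ISR genes tested by edgeR, grouped by role; dark marks have an unadjusted p under 0.05. The intervals of Cebpb and Aldh18a1 lie below 0, that of Eif4ebp1 ends just above it, and the others span 0.

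ATF4 with a C/EBP partner binds a composite element that joins a C/EBP site to an ATF site. The core TGATGNAA was searched on both strands in the 250 bases before and 50 bases after each annotated start (RefSeq, GRCm38.p6). It was in the window of 8 of the 28 ISR genes that had a promoter entry (28.6%), beside 1219 of 27025 genes (4.51%). Ppp1r15b, Cth and Eif4ebp1 had no entry. The 8 were Asns, Chac1, Eif2s3x, Jdp2, Nupr1, Pycr1, Trib3 and Vldlr, and of other ATF4 targets 10 of 31 (32.3%) had it. The stretches below show the element in 6 targets of ATF4 among the ISR genes. They run 5′ to 3′ on the strand of the gene and end at different distances before the RefSeq start. Those of Asns, Jdp2, Nupr1 and Vldlr lie within the gene limits of GENCODE M21, whose starts can differ from those of RefSeq. Capitals mark the element, or its reverse complement where it lies on the opposite strand.
Asns, chr6:7693210-7693254, minus strand: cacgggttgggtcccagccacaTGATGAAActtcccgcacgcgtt
Chac1, chr2:119351027-119351078, plus strand: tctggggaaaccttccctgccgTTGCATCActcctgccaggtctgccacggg
Jdp2, chr12:85599361-85599412, plus strand: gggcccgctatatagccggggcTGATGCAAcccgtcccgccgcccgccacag
Pycr1, chr11:120643822-120643873, minus strand: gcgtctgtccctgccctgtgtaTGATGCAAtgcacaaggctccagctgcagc
Nupr1, chr7:126625551-126625602, minus strand: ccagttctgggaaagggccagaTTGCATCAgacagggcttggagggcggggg
Vldlr, chr19:27216798-27216849, plus strand: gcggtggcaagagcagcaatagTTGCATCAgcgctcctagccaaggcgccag

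The 6 tested genes with the element had a median log2 fold change of -0.21 with 5 lower, and the 19 tested genes with a promoter entry and without it had a median of -0.17 with 15 lower. The cyclic AMP response element TGACGTCA, which is its own reverse complement, was in the window of 1 ISR gene, Ppp1r15a (3.57%), beside 2.03% of all genes.

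The enzymes of amino acid synthesis were lower in 4 of 5, with a median log2 fold change of -0.23. Asns, the asparagine synthetase that serves as a standard ATF4 target, had 28.0, 35.6 and 24.8 CPM in TCR alone and 23.2, 27.7 and 24.5 CPM in TCR+DMGV. The DMGV samples lay in the lower range, replicate 2 with DMGV was above TCR alone replicate 3, and the log2 fold change was -0.23 (SE 0.15). Aldh18a1, which makes the glutamate semialdehyde used for proline and ornithine, had 177, 178 and 174 CPM in TCR alone and 153, 154 and 162 CPM in TCR+DMGV. Its groups did not overlap, with means of 176 ± 2.02 and 157 ± 5.12 CPM (SD, n = 3 each), and the log2 fold change was -0.17 (SE 0.066, 95% interval -0.33 to -0.015), an 11.1% lower level. Its edgeR adjusted p was 0.999, and the exact permutation p was 0.1 as for Cebpb. Aldh18a1 was not at an unadjusted p under 0.05 without TCR alone replicate 2 or without any single TCR+DMGV replicate, nor with DESeq2 or without the 2 samples that stood apart.

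Pycr1, the next enzyme towards proline, went the other way, from 7.42 to 7.78 CPM in TCR alone and from 7.32 to 8.99 CPM in TCR+DMGV, with a log2 fold change of 0.099 (SE 0.14). Cth and Cbs, the enzymes of transsulfuration that lead from homocysteine to cysteine, had log2 fold changes of -0.57 (SE 0.29) and -0.27 (SE 0.26). For Cth the values were 5.16, 5.68 and 4.88 CPM in TCR alone and 3.06, 2.37 and 5.20 CPM in TCR+DMGV. Replicates 1 and 2 with DMGV were lower than every TCR alone sample and replicate 3 was not, so the lowest log2 fold change among the ISR genes rested on 2 samples.

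All 5 feedback and growth control targets were lower, with a median log2 fold change of -0.26 and a range from -0.28 to -0.18. In the main edgeR fit (TMM, default filter, all 6 samples, no added term) none had an adjusted p under 0.999. Trib3, a pseudokinase that restrains ATF4 and AKT, had 8.16, 5.88 and 6.93 CPM in TCR alone and 4.81, 6.71 and 6.79 CPM in TCR+DMGV. TCR+DMGV replicate 1 was the lowest and the other samples mixed. Sesn2, the leucine-binding inhibitor of mTORC1 signalling, had 22.1, 21.9 and 20.6 CPM in TCR alone and 17.7, 21.0 and 18.5 CPM in TCR+DMGV. The overlap was between TCR+DMGV replicate 2 and TCR alone replicate 3 only.

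Eif4ebp1, the translational repressor 4E-BP1, had 51.5, 50.2 and 44.3 CPM in TCR alone and 35.1, 40.1 and 45.0 CPM in TCR+DMGV. TCR+DMGV replicate 3 was just above TCR alone replicate 3, and the log2 fold change was -0.28 (SE 0.12, 95% interval -0.56 to 0.0021). On the FPKM scale Eif4ebp1 and Sesn2 no longer overlapped, which made 5 such genes of 31 (16.1%), beside 6.61% of all genes with a count. Eif4ebp1 was at an unadjusted p under 0.05 with DESeq2, with limma, and in edgeR with other size factors or filters. With summed transcript counts or a replicate block in edgeR it was not. Gadd45a, a p53 and stress target that slows the cell cycle, had 1.58, 1.84 and 1.64 CPM in TCR alone and 1.57, 1.14 and 1.51 CPM in TCR+DMGV. Its groups were separated narrowly and at a low level, and the log2 fold change was -0.26 with an SE of 0.25.

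Among the 28 genes tested, the spread within a group was widest for Chac1, which degrades glutathione and is usually among the strongest targets of the ATF4 and CHOP arm. It had 2.53, 2.50 and 1.88 CPM in TCR alone and 0.854, 3.30 and 1.59 CPM in TCR+DMGV. The DMGV samples held both the lowest and the highest value, with a coefficient of variation of 65.5%, and the log2 fold change of -0.27 (SE 0.47) turned to 0.084 without TCR+DMGV replicate 1. The mean of Chac1 in the 2 samples that stood apart was 0.55 of that in the other 4.

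The remaining targets showed small differences or low levels. Xpot, the exporter of tRNA from the nucleus, ranged from 265 to 297 CPM in TCR alone and from 266 to 280 CPM in TCR+DMGV, with a log2 fold change of -0.066 (SE 0.074). For Lonp1 the ranges were 267 to 294 CPM and 262 to 284 CPM, with a log2 fold change of -0.037 (SE 0.072). Stc2, a secreted glycoprotein, ranged from 1.14 to 2.40 CPM and from 1.34 to 1.53 CPM, with a log2 fold change of -0.26 (SE 0.32).

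The counts were also read by transcript, where they are estimates and less certain than the counts per gene. Of 98 transcripts of ISR genes with a count, 55 were tested, 0 had an edgeR adjusted p under 0.05, as was the case for all 38401 transcripts tested, and 2 were at an unadjusted p under 0.05 (Cebpb-201 and Aldh18a1-207), beside 3.22% of all transcripts. In 17 genes 1 transcript held at least 90% of the counts in every sample. Asns-202 had 740 counts in TCR alone replicate 3 and 797 in TCR+DMGV replicate 1 and 0 in the other 4, where Asns-201 had 965 to 1443. In the former 2 samples Asns-201 had 269 and 227 counts. Counts of Asns-202 were thus found in 1 sample of each group, the same samples that stood apart over all genes. At lower counts, Jdp2-201 had 73 counts in TCR alone replicate 2 and 40 in TCR+DMGV replicate 3 and 0 in the other 4, and Jdp2-203 had 0 in TCR+DMGV replicate 3 and 31 to 87 elsewhere. Cbs-202 was found in TCR+DMGV replicate 1 only (27 counts), and Cbs-203 in TCR alone replicate 3 (23 counts) and TCR+DMGV replicate 2 (22 counts).

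**Figure D4:**
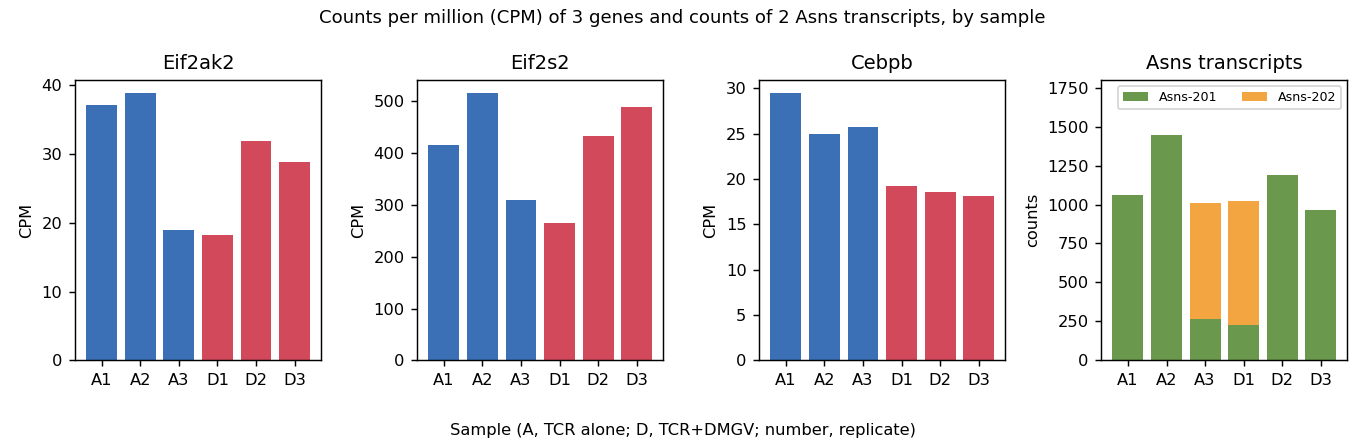
Bars of Eif2ak2, Eif2s2 and Cebpb in CPM and of the transcripts Asns-201 and Asns-202 in counts (stacked), for each of the 6 samples (A, TCR alone; D, TCR+DMGV). Eif2ak2 and Eif2s2 are lowest in A3 and D1, the samples that also hold the Asns-202 counts, whereas Cebpb is lower in all 3 D samples.

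Other genes around the ISR were read from the same fit, and 0 of them had an edgeR adjusted p under 0.05 in any list. The guanine nucleotide exchange factor eIF2B and start codon factors (14 tested, 8 higher) had a median log2 fold change of 0.053, with 0.21 for Eif2b4 (SE 0.091), 0.15 for Eif2b2 (SE 0.092) and 0.13 for Eif2b1 (SE 0.095). Genes that act on GCN2 activation (7 tested) had a median of 0.0022, with Daxx at -0.35 (SE 0.16). Genes of the relay from mitochondria and mitochondrial proteases (16 tested, 10 higher) had a median of 0.017, in which Dele1, the messenger that activates HRI, was at 0.13 (SE 0.085), Phb at 0.15 (SE 0.094) and Afg3l2 at 0.11 (SE 0.074). None of these genes was at an unadjusted p under 0.05.

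The ER unfolded protein response, the arm shared with PERK, had 11 of 16 genes lower and a median of -0.025, with Herpud1 at -0.14 (SE 0.094), Edem1 at -0.087 (SE 0.071) and Sel1l at -0.35 (SE 0.27). Other ATF4 targets (41 tested, 24 lower) had a median of -0.034, and 2 of them were at an unadjusted p under 0.05 in opposite directions. Map1lc3b, which encodes the autophagosome protein LC3B, had 37.5, 42.3 and 42.5 CPM in TCR alone and 55.5, 50.5 and 54.0 CPM in TCR+DMGV, higher in all 3 DMGV samples (log2 fold change 0.39, SE 0.094). Gpt2, the mitochondrial alanine aminotransferase, had 11.5, 14.6 and 12.6 CPM in TCR alone and 7.14, 9.43 and 9.54 CPM in TCR+DMGV, lower in all 3 (log2 fold change -0.57, SE 0.17). The edgeR adjusted p was 0.999 for both, and that of DESeq2 was 0.54 for Map1lc3b and 0.82 for Gpt2. Psat1, of serine synthesis, had 272, 297 and 272 CPM in TCR alone and 416, 252 and 424 CPM in TCR+DMGV, with TCR+DMGV replicate 2 below all the others (log2 fold change 0.38, SE 0.19).

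Dimerization partners of ATF4 and CHOP (22 tested, 12 lower) had a median of -0.026. Nfe2l1 had 44.5, 140 and 47.3 CPM in TCR alone and 37.6 to 42.9 CPM in TCR+DMGV, so that its log2 fold change of -0.95 (SE 0.43) rested on TCR alone replicate 2 and was -0.20 without it. Cebpa, the C/EBP alpha gene, was at 0.64 to 0.79 CPM in TCR alone and 0.88 to 1.56 CPM in TCR+DMGV, a log2 fold change of 0.69 (SE 0.34), opposite in sign to that of Cebpb. Jun was at -0.16 (SE 0.088). The median of the 28 ISR genes tested, -0.17, was lower than that of each of these lists, and no test was made of that difference.

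**Figure D5:**
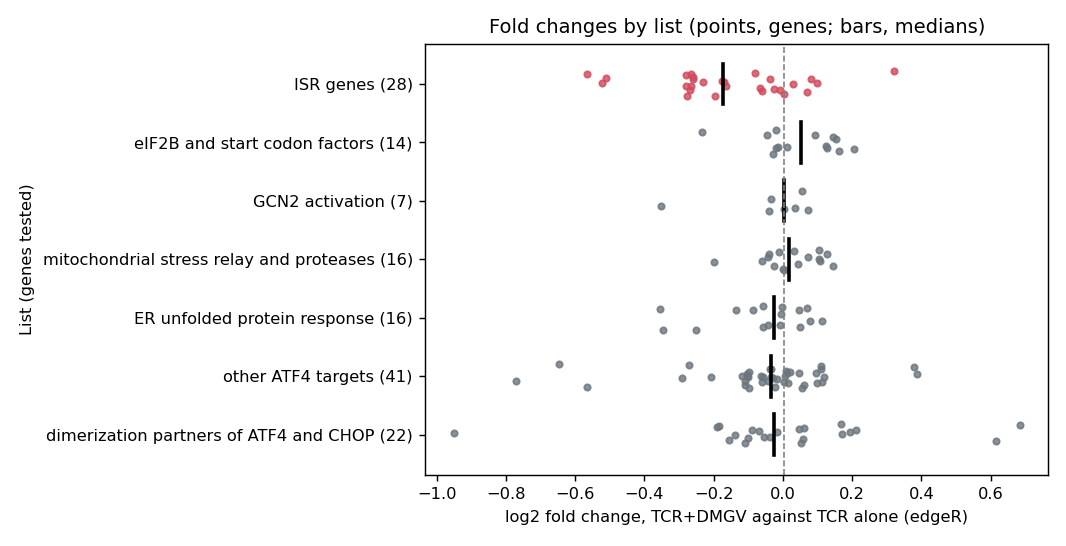
Log2 fold changes of TCR+DMGV against TCR alone for single genes (points) in the ISR genes and the 6 other lists, with the number tested in brackets and a bar at the median. The ISR median lies at -0.17 and those of the other lists between -0.034 and 0.053.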

How the data were processed

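RNA was extracted with TRIzol, and mRNA libraries were sequenced on an Illumina Xten. The authors filtered reads with SOAPnuke, mapped them with HISAT2 (version 2.0.4 in the submitters' processing notes, which name the build mm9) and calculated expression with StringTie. The authors deposited raw counts, as integers, for genes and for transcripts, and the deposited FPKM values per gene are scaled to length and depth. The transcript FPKM values were not used. How coverage became counts, and whether strand was used, is not given in the sources used here. The identifiers matched GENCODE M21 (GRCm38) for 99.7% of genes without and 93.3% with their version, and symbols and positions come from there. The 37 genes of the mitochondrial genome had 0 counts.

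Samples were grouped by their labels. The counts were tested with edgeR 4.0.16 in R 4.3.3 (quasi-likelihood test, TMM, default filter on low counts, two-sided, Benjamini-Hochberg over all genes tested, threshold 0.05). CPM are counts scaled to the TMM-adjusted library, and intervals are 95% intervals of the fit. With 3 samples a group the precision is that of the standard errors given. Single genes were also tested by exact permutation. Alternatives were DESeq2 1.42.0, limma 3.58.1 on log2(FPKM + 1) and log2(FPKM + 0.1), other size factors and filters (1 CPM in 3 samples, or every gene with a count), summed transcript counts, a replicate block and each sample left out. Leaving out the 2 samples that stood apart, or a term for them, was added after the data were seen. No 2 samples of the same group agreed within sampling noise. Python 3.11.15 with pandas 2.3.3 read the promoter windows, scipy 1.17.1 ran exact tests, and matplotlib 3.10.9 drew figures.

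The genes and lists were chosen with earlier results of these data known. Values per sample were given for a fixed set (Atf4, Ddit3, Cebpb, Asns, the kinases, Eif2s1, the phosphatase subunits, Trib3, Chac1 and Sesn2), for any other ISR gene at an unadjusted p under 0.05 or without overlap, and for the gene of widest spread. Up to 3 genes of smallest p were named for each other list. Eif2s2, Eif4ebp1, Atf5, Cth and the neighbouring genes were detailed after their values were seen.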

Additional observations from a re-analysis of the deposited data

How the results depend on the processing

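Over 17 other settings, 0 values of single ISR genes passed the adjusted threshold. With all samples or without the 2 that stood apart, 6 of 308 values changed sign, all of Ppp1r15b: -0.0022 with RLE size factors, -0.0097 with library size alone, -0.011 with limma on log2(FPKM + 1) and on log2(FPKM + 0.1), -7.0e-04 with DESeq2 and -0.0067 without the 2 samples. With 1 sample left out 14 of 168 changed sign, and 19 genes changed sign in no setting. The ranges were -0.0013 to 0.049 for Eif2ak1, -0.089 to 0.083 for Eif2ak3, -0.015 to 0.17 for Eif2s1, -0.24 to 0.16 for Eif2s2, -0.11 to 0.065 for Eif2s3x, -0.022 to 0.026 for Ppp1r15b, -0.92 to 0.084 for Chac1, -0.49 to 0.023 for Stc2 and -0.089 to 0.0031 for Lonp1. The median of the ISR genes ran from -0.20 to -0.065 with 1 sample left out and was -0.090 with limma on log2(FPKM + 1), where the added 1 shrinks low genes. The median of all genes stayed between -0.011 and 0.012.

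Over the whole table, the count past the adjusted threshold was 2, 1 with library size alone, 1 with every gene with a count, 0 with limma on either scale, 14 with DESeq2 and 12 without the 2 samples that stood apart. It ran from 0 to 5 with 1 sample left out, with 5 without TCR+DMGV replicate 1, 2 without TCR+DMGV replicate 3 and 0 without any other sample. ISR genes at an unadjusted p under 0.05 numbered 4 with a term for the 2 samples (Eif2ak2 and Eif4ebp1 with Cebpb and Aldh18a1), beside 5.05% of all genes. They numbered 1 to 5 with 1 sample left out, beside 2.42% to 7.30% of all genes. The 5, without TCR alone replicate 3, were Aldh18a1, Asns, Atf5, Cebpb and Eif4ebp1, beside 7.30% of all genes. With RLE size factors the groups did not overlap for 2 ISR genes (7.14%), beside 8.61% of all genes. With library size alone they did not overlap for 4 (14.3%), beside 7.78% of all genes. Groups did not overlap for 5 ISR genes with limma on either scale, where 6.61% of all genes did not. With 1 sample left out they did not overlap for 5 to 10, where 15.9% to 28.4% of all genes did not. Without the 2 samples they did not overlap for 14 of 29 (48.3%), where 38.7% of all genes did not. The cause of these shifts was not tested.

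With the replicate number as a replicate block, 0 genes passed the adjusted threshold. In that fit 1 ISR gene (Cebpb) was at an unadjusted p under 0.05, beside 2.30% of all genes. Samples of the same number did not deviate together (r = -0.15, 0.12 and -0.15 for numbers 1, 2 and 3). The 2 samples that stood apart, which have different numbers, had r = 0.31. With that split in the deviations, these values can neither show nor exclude a pairing, and the number is not taken as one. The median SE of the ISR genes was 0.25 under 8 CPM, and the parts of counting error and of variation between samples in it were not separated.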
